A study of Mus musculus with 2 samples.

Results

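The 10 genes described here handle iron and heme: the plasma iron carrier Trf, the iron importers Tfrc and Slc11a1, the ferritin subunits Fth1 and Ftl1, the heme enzyme Hmox1, the hemoglobin receptor Cd163, the iron exporter Slc40a1, the ferroxidase Cp and the iron hormone Hamp. They were chosen by name, as 10 of 32285 features, and each symbol had 1 feature in both libraries. Their raw UMIs (unique molecular identifiers, 1 per captured transcript) were summed over cell classes named from marker genes. The members were left out of the genes used for clustering. The samples are liver tumors (hepatocellular carcinoma) of C57BL/6J mice, profiled in droplets as 1 single-cell 3′ library for each genotype, wild type (WT) and FABP5 hKO (hKO below), in which hepatocytes lose the fatty acid binding protein gene Fabp5. The knockout used Alb-CRE-ER, a tamoxifen-activated recombinase under a hepatocyte promoter, so it addresses hepatocytes and not the immune or vessel cells of the tumor. Both genotypes were littermates given 5 doses of tamoxifen (100 mg/kg) at 6 to 8 weeks of age, 3 days apart and each after a 16 h fast. From 2 weeks after the last dose they ate a CD-HFD for 15 months. Each library pools 2 to 3 tumors, and whether the WT mice carried the recombinase or a conditional allele is not stated in the labels. With 1 library a genotype there is no replicate, so no test was made, and every interval covers counting error only.

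Iron circulates bound to transferrin and enters most cells through the transferrin receptor, and what is not used is stored in ferritin, a shell of heavy and light chains. Liver macrophages (Kupffer cells) take up aged red cells, open heme with heme oxygenase and return the iron to plasma through ferroportin, the protein of Slc40a1. Hepatocytes make transferrin, ceruloplasmin and hepcidin, the peptide of Hamp that binds ferroportin and removes it from the cell surface. Inside cells, iron regulatory proteins bind hairpins called iron responsive elements when iron is low: in a 5′ UTR this blocks translation, and in the Tfrc 3′ UTR it protects the transcript. Much of the control of Fth1, Ftl1 and Slc40a1 is therefore at translation, which a transcript count does not see.

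The elements are shown because a search for their pattern separates members with a match from those without. Binding of the proteins was not measured. Transcripts of the GENCODE M21 annotation were searched for a loop CAGTGN (its last base A, C or T) between 5 paired bases, G-T pairs allowed, with a C before the upper stem. In 5′ UTRs 23 of 21877 protein-coding genes (0.105%) held a match, 3 of them members, and in 3′ UTRs 100 genes (0.457%), of which Tfrc was the member. Each site is 29 bases, 5′ to 3′ on the transcript's strand, with the 6 loop bases in capitals.
Fth1 5′ UTR, bases 10 to 38 of the transcript: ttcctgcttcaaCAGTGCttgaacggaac
Ftl1 5′ UTR, bases 78 to 106: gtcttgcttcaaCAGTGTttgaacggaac
Slc40a1 5′ UTR, bases 90 to 118: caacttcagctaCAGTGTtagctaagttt
Tfrc 3′ UTR, bases 3315 to 3343: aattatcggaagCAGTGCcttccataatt
Tfrc 3′ UTR, bases 3694 to 3722: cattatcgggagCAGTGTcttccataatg
Tfrc 3′ UTR, bases 3759 to 3787: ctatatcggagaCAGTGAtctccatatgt
Tfrc 3′ UTR, bases 3806 to 3834: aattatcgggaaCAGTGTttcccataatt

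After filtering, 9459 WT cells (48316789 UMIs) and 10402 hKO cells (48298750 UMIs) remained, in 45 clusters. Marker genes named 39 clusters as 14 classes, and 11 classes had at least 100 cells in each library. Plasmacytoid dendritic-like cells lay mostly in cluster 26 in WT and 40 in hKO, B-like cells in 5 and 38, and T-like cells in 11 in WT and in 8 and 20 in hKO, so library and cluster cannot be told apart there. Neutrophil-like, erythroid-like, NK or innate lymphoid-like, monocyte-like and conventional dendritic-like cells shared their clusters. Between the libraries, 73 barcode sequences were shared. Hemoglobin transcripts were 8.15% of all UMIs in WT and 1.65% in hKO, and 12 abundant hepatocyte transcripts were 0.715% and 1.83%. Fabp5 in hepatocyte-like cells had 126 UMIs (34.7 CPM, the gene's share of all UMIs of the class on the usual CPM scale) in WT and 51 UMIs (13.8 CPM) in hKO, a log2 ratio of −1.33 (−1.83 to −0.85). The library labelled hKO was thus lower in the targeted gene but not at 0. Fabp5 stayed under the 50 CPM that the rule given below asks for. By that rule 41.7% of 3758 genes were lower in hKO hepatocyte-like cells, and the median log2 ratio over all tested genes was −0.76.

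Most members were highest in the same cell class in both libraries. Trf, Cp and Hamp were highest in the hepatocyte-like class among the 11 compared, Slc40a1 and Hmox1 in macrophage-like cells, and Tfrc in plasmacytoid dendritic-like cells. Fth1 was highest in neutrophil-like cells of both libraries. Ftl1 was highest in macrophage-like cells of WT and in hepatocyte-like cells of hKO.

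**Figure D1:**
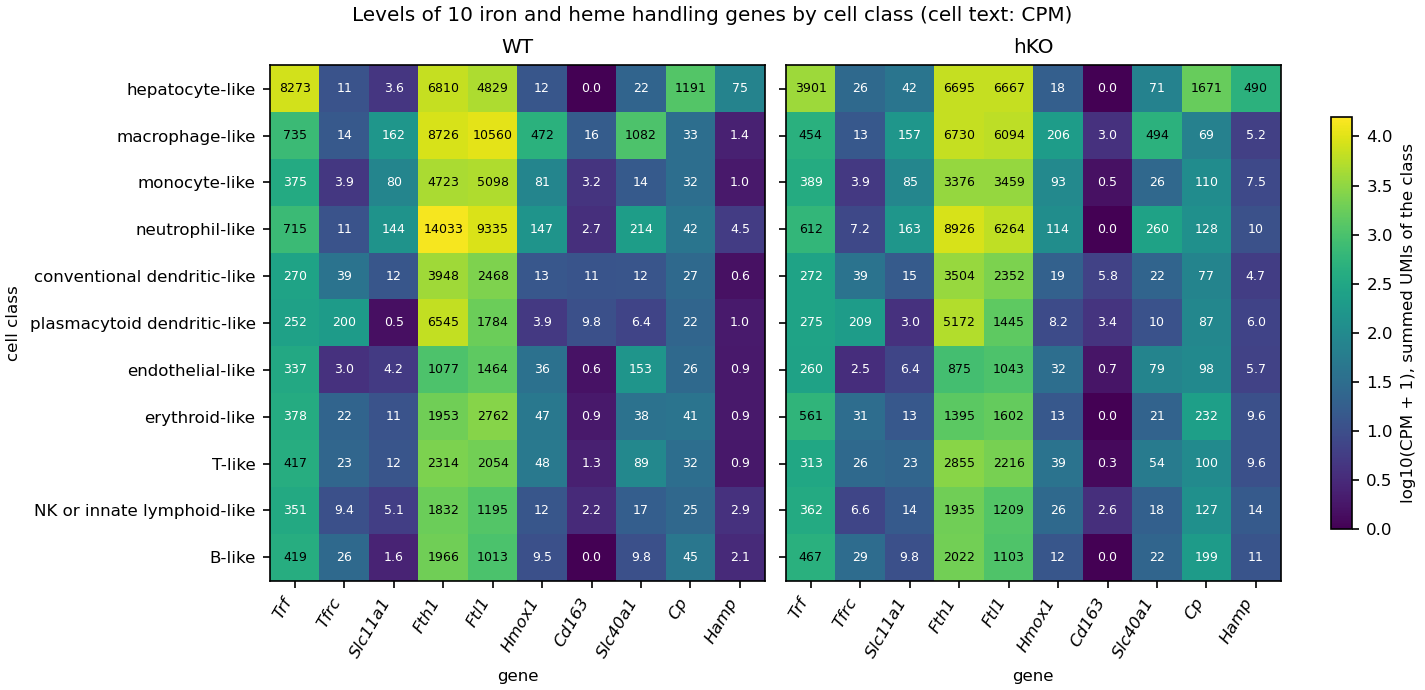
Levels of the 10 genes (columns) in the 11 compared cell classes (rows), WT left and hKO right. The colour is log10(CPM + 1) of the summed UMIs of a class, and each cell of the map prints the CPM: Trf stands at 8273 in WT and 3901 in hKO hepatocyte-like cells, and Slc40a1 at 1082 and 494 in macrophage-like cells.

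A difference was called when the gene reached 50 CPM in WT or hKO, its log2 ratio was 1 or more in either direction, and the 95% interval of that ratio excluded 0. Of the 110 pairs of a member and a class, 57 reached 50 CPM in a library, and of these 12 were higher and 3 lower in hKO. Over all genes and compared classes, 5.46% of the pairs tested were higher and 5.82% lower. Of the 12, 10 were Cp outside hepatocytes, and the other two were Hamp and Slc40a1 in hepatocyte-like cells. The 3 lower pairs were Trf in hepatocyte-like cells and Slc40a1 and Hmox1 in macrophage-like cells.

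**Figure D2:**
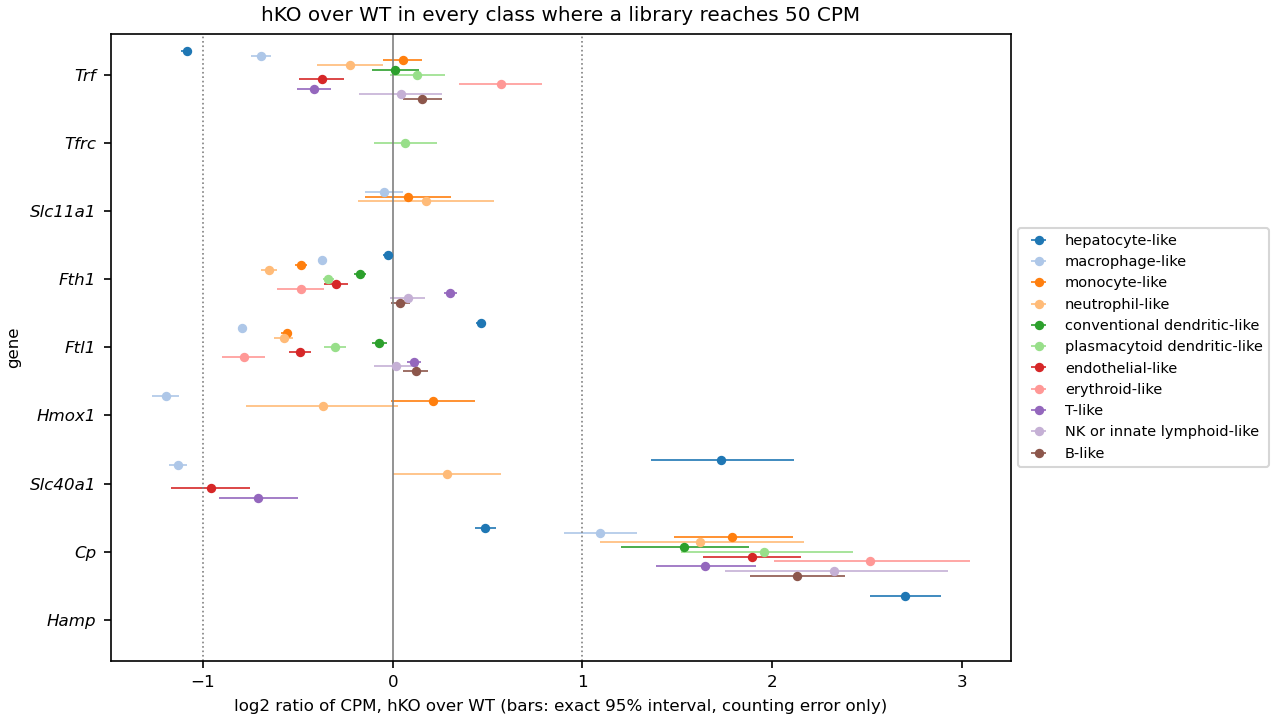
Log2 ratio of CPM, hKO over WT, for each member (rows) in each class where a library reaches 50 CPM (coloured points), with exact 95% counting intervals as bars and dotted lines at −1 and 1. Cp lies to the right of 1 in the 10 non-hepatocyte classes, Hamp at 2.70 in hepatocyte-like cells, and the Fth1 and Ftl1 points lie between −0.79 and 0.47.

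Trf encodes transferrin. In hepatocyte-like cells it had 30004 UMIs (8273 CPM) in WT and 14430 UMIs (3901 CPM) in hKO. The hKO level was below WT by a log2 ratio of −1.08 (−1.11 to −1.06), one of 3 members called in this class, beside Hamp and Slc40a1 on the higher side. The background of this class is wide: 41.7% of 3758 genes were called lower and 10.9% higher in hKO, and the median log2 ratio over all tested genes was −0.76. When log2 ratios were centred on the median of genes at 50 CPM in both libraries, −0.26, Trf stood at −0.82 and was no longer called.

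The hepatocyte-like cells of the libraries shared almost no cluster, so genotype and cluster cannot be told apart for any member in this class. WT cells lay in cluster 29 (324 cells, median 1298.5 UMIs) and cluster 32 (118 cells, median 21715.5 UMIs), and hKO cells in clusters 42 (289 cells), 43 (308 cells) and 44 (506 cells). Trf in WT was at 11066.6 CPM in cluster 29 and 7646 CPM in cluster 32. Trf in hKO was at 1994 CPM in cluster 42, 4759.6 CPM in cluster 43 and 6869 CPM in cluster 44. The 21 WT cells of cluster 42 gave 1898 CPM (82 UMIs, interval 1509.9 to 2356), which spans the value of the hKO cells of that cluster. All 3 hKO clusters were thus below both large WT clusters, and the 1 cluster with cells of both libraries showed no gap. Without cluster 42 the Trf ratio was −0.38, and without cluster 29 it was −0.96, neither of them called.

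In the 10 other compared classes Trf ranged from 252 to 735 CPM in WT and from 259.9 to 612 CPM in hKO. Among these it was highest in macrophage-like cells of WT and in neutrophil-like cells of hKO. The few cholangiocyte-like cells, outside the comparison, stood at 1955 CPM in WT and 1022 CPM in hKO. In macrophage-like cells Trf had 7206 UMIs (735 CPM) in WT and 4949 UMIs (454 CPM) in hKO, a log2 ratio of −0.70 (−0.75 to −0.64) that was not called. Droplet libraries hold free RNA from broken cells, and a transcript that comes only from it keeps 1 ratio to the 12 abundant hepatocyte transcripts in every class. Trf had 119 UMIs per 1000 of those transcripts in hepatocyte-like cells of WT and 37.8 in hKO, against 409 and 125 in macrophage-like cells. The 9 other compared classes were also above the hepatocyte ratio, at 163 to 248 in WT and 40.3 to 68.0 in hKO, with macrophage-like cells the highest of the 11 in each library.

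Tfrc encodes the receptor that carries transferrin-bound iron into the cell. It reached 50 CPM in 1 compared class, the plasmacytoid dendritic-like cells, with 409 UMIs (199.9 CPM) in WT and 1121 UMIs (209.1 CPM) in hKO. The libraries did not differ there beyond counting error (log2 ratio 0.06, −0.10 to 0.23). Thinned to 1000 UMIs a cell, 18.8% (14.5 to 23.7) of WT and 16.1% (13.8 to 18.6) of hKO plasmacytoid dendritic-like cells held a Tfrc UMI, against 1.42% of T-like cells in each library. Cells with fewer than 1000 UMIs cannot be thinned and are left out of every thinned share. Before thinning the shares were 56.1% and 55.9%, at medians of 7200.5 and 5808 UMIs, and in T-like cells 7.28% and 9.97% at medians of 3880 and 3700 UMIs.
Among clusters with at least 100 cells in each library Tfrc was highest in the conventional dendritic-like cluster 19, at 57.6 CPM in WT (127 UMIs) and 60.8 CPM in hKO (143 UMIs). In hepatocyte-like cells Tfrc had 40 UMIs (11.0 CPM) in WT and 98 UMIs (26.5 CPM) in hKO, under the 50 CPM needed for a call. In the Kupffer-like macrophage clusters 4 and 7 Tfrc had 66 UMIs (21.6 CPM) in WT and 31 UMIs (54.3 CPM) in hKO, a log2 ratio of 1.33 (0.67 to 1.97) that passes the rule on few UMIs, while all macrophage-like cells together stood at 14.0 and 13.1 CPM. Endothelial-like cells and monocyte-like cells stood lowest, at 2.50 to 3.91 CPM in both libraries.

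Slc11a1 encodes an iron and manganese transporter of the phagosome membrane of macrophages and neutrophils. It reached 50 CPM in 3 classes, and none was called. Macrophage-like cells had 1587 UMIs (162 CPM) in WT and 1711 UMIs (157 CPM) in hKO, a log2 ratio of −0.04 (−0.14 to 0.05). Neutrophil-like cells stood at 144 and 163 CPM and monocyte-like cells at 79.9 and 84.5 CPM. The intervals of these 3 ratios all include 0, and the widest, in neutrophil-like cells, runs from −0.18 to 0.53. In hepatocyte-like cells Slc11a1 had 13 UMIs (3.58 CPM) in WT and 154 UMIs (41.6 CPM) in hKO, below the level for a call. All 12 macrophage markers had UMIs in these cells, and together they stood at 181 CPM in WT and 409.8 CPM in hKO, against 16558 and 8957 CPM in macrophage-like cells. Per 1000 UMIs of those markers, Slc11a1 had 19.8 in WT and 102 in hKO hepatocyte-like cells, and 9.78 and 17.5 in macrophage-like cells. Whether RNA of macrophages has a part in the hKO value was not tested.

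Fth1 encodes the ferritin heavy chain, which oxidises iron for storage, and Ftl1 the light chain, which helps to form the mineral core. Both were above 50 CPM in all 11 compared classes of each library, and neither was called in any of these classes. In single clusters, Fth1 passed the rule as lower in hKO in clusters 7 (macrophage-like, −1.51) and 35 (monocyte-like, −1.02), and Ftl1 in clusters 6 and 7 (macrophage-like, −1.33 and −1.21) and 35 (−1.16), each with 63 hKO cells at most. The share of all genes past the rule was not computed for any single cluster or group of clusters. Such passes therefore have no background to be read against. Ftl1 in macrophage-like cells had 103500 UMIs (10559.6 CPM) in WT and 66426 UMIs (6094 CPM) in hKO, a log2 ratio of −0.79 (−0.81 to −0.78). Fth1 in the same cells stood at 8726 CPM in WT and 6729.8 CPM in hKO, a ratio of −0.37 (−0.39 to −0.36). Fth1 in neutrophil-like cells, its highest class, stood at 14033 CPM in WT and 8926 CPM in hKO (−0.65, −0.70 to −0.61). Ftl1 in those cells stood at 9335 and 6264 CPM (−0.58, −0.63 to −0.52).

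Myeloid and vessel classes were thus lower for both chains in hKO, within the limit of a log2 ratio of 1. Monocyte-like cells had Fth1 at 4723 and 3376 CPM (−0.48) and Ftl1 at 5098 and 3459 CPM (−0.56). Endothelial-like cells had Fth1 at 1077 and 875 CPM (−0.30) and Ftl1 at 1464 and 1043 CPM (−0.49). Lymphoid classes went the other way or stood level: T-like cells had Fth1 at 2314 and 2855 CPM (0.30, 0.27 to 0.34), and B-like and NK or innate lymphoid-like cells lay between 0.02 and 0.12 for both chains.

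In hepatocyte-like cells the chains moved apart. Fth1 had 24697 UMIs (6809.7 CPM) in WT and 24767 UMIs (6695 CPM) in hKO, a log2 ratio of −0.02 (−0.05 to 0.00). Ftl1 had 17513 UMIs (4829 CPM) in WT and 24665 UMIs (6667 CPM) in hKO, a ratio of 0.47 (0.44 to 0.49). Fth1 differed less between the libraries than between clusters of 1 library. In hKO it stood at 9375 CPM in cluster 42, 5199.8 in cluster 43 and 2578 in cluster 44, and in WT at 12301 in cluster 29 and 5239 in cluster 32.

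The balance of the chains, as Fth1 UMIs per Ftl1 UMI, set the classes apart more than it set the libraries apart. A 3′ library takes 1 tag per transcript, so these counts were not divided by gene length. Plasmacytoid dendritic-like cells had the most Fth1 relative to Ftl1, at 3.67 (3.54 to 3.81) in WT and 3.58 (3.49 to 3.67) in hKO. Endothelial-like cells were at 0.736 (0.716 to 0.756) and 0.839 (0.795 to 0.886), and erythroid-like cells at 0.707 and 0.871. Macrophage-like cells went from 0.826 (0.819 to 0.834) in WT to 1.10 (1.09 to 1.12) in hKO, and hepatocyte-like cells from 1.41 (1.38 to 1.44) to 1.00 (0.987 to 1.02). Those 2 classes moved in opposite directions and their intervals do not overlap between libraries. Reads from Ftl1-ps1, a processed copy counted as a gene of its own (over all barcodes 1015 UMIs in WT and 1699 in hKO), could be split between it and Ftl1.

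Hmox1 encodes heme oxygenase, which opens the heme ring and frees its iron. In macrophage-like cells it had 4630 UMIs (472 CPM) in WT and 2245 UMIs (206 CPM) in hKO. The hKO level was lower by a log2 ratio of −1.20 (−1.27 to −1.12), and it was called. In this class 2 members were called lower, where 1.76% of 3868 genes were called lower, and 1 member was called higher, where 2.48% were. Neutrophil-like cells had Hmox1 at 147 CPM in WT and 114 CPM in hKO (−0.37, −0.77 to 0.03), and monocyte-like cells at 80.5 and 93.2 CPM (0.21, −0.01 to 0.43). Neither of these differed beyond counting error over the class. The monocyte-like clusters went opposite ways, with Hmox1 at 56.8 and 116 CPM in cluster 2 (1.03, 0.64 to 1.44, past the rule) and at 95.6 and 76.1 CPM in cluster 17 (−0.33, −0.62 to −0.03). Hemoglobin transcripts, which come with red cells, were lower in macrophage-like cells too, at 0.584% of UMIs in WT and 0.0765% in hKO. There 4 of 4 hemoglobin genes were called lower. The same 4 of 4 were called lower in T-like, NK or innate lymphoid-like, conventional dendritic-like, monocyte-like, neutrophil-like and hepatocyte-like cells. Of those classes Hmox1 reached 50 CPM only in monocyte-like and neutrophil-like cells, and it was called in neither. In the others it lay under the level for a call, so none was possible. The part of red cells in the macrophage Hmox1 difference was not tested.

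Slc40a1 encodes ferroportin, through which iron leaves the cell. In macrophage-like cells it had 10610 UMIs (1082 CPM) in WT and 5387 UMIs (494 CPM) in hKO. The hKO level was lower by a log2 ratio of −1.13 (−1.18 to −1.08). Thinned to 1000 UMIs, 43.6% (41.1 to 46.2) of WT and 30.7% (28.3 to 33.1) of hKO macrophage-like cells held a Slc40a1 UMI, against 1.02% and 1.19% of plasmacytoid dendritic-like cells. The thinned shares leave out macrophage-like cells under 1000 UMIs, 440 of 1946 in WT and 54 of 1486 in hKO. Without thinning, over all cells of the class, the shares were 54.5% and 57.7%, at medians of 3491.5 and 6277 UMIs. The unthinned shares thus do not follow the CPM.

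The libraries filled the macrophage clusters in different shares. The Kupffer-like clusters 4 and 7, named from markers such as Clec4f, Vsig4 and Cd5l, held 633 WT cells and 91 hKO cells. Cluster 18, lipid-associated-like by Trem2, Gpnmb and Lpl, held 268 and 335, and clusters 6, 21 and 23, which took no subset name, held 1045 and 1060. Cells with a UMI of Clec4f, a lectin of Kupffer cells, were 30.1% of the class in WT (585 cells) and 9.35% in hKO (139 cells).

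Within the Kupffer-like clusters Slc40a1 stood at 2253 CPM in WT (6896 UMIs) and 2265 CPM in hKO (1293 UMIs), a log2 ratio of 0.01 (−0.08 to 0.09). In the lipid-associated-like cluster it stood at 155 CPM in WT and 305 CPM in hKO, 0.97 (0.78 to 1.17). In the clusters with no subset name it stood at 718 CPM in WT and 424 CPM in hKO, −0.76 (−0.83 to −0.69). The lower level over the whole class was therefore not present in each of its clusters: Slc40a1 did not differ beyond counting error in 1 group, and was higher in hKO in another and lower in the last. By single cluster, cluster 4 had 2412 and 2235 CPM, the shallow cluster 7 had 1245 and 2715 CPM (20 hKO cells), cluster 21 had 482 and 279 CPM, and cluster 23 had 1207 and 739.9 CPM. Cluster 21 also held T cell transcripts (Cd3e at 145 and 166 CPM). Without it the Slc40a1 ratio of the class was −0.89 (−0.94 to −0.83), just short of the size for a call.

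Hmox1 went another way across the same clusters. In the Kupffer-like clusters it stood at 885 CPM in WT (2708 UMIs) and 501 CPM in hKO (286 UMIs), a log2 ratio of −0.82 (−1.002 to −0.64). In the clusters with no subset name it stood at 288 and 154 CPM (−0.90, −1.01 to −0.79), and in the lipid-associated-like cluster at 279 and 309 CPM (0.15, −0.02 to 0.31). Ftl1 was lower in hKO in each of the 3 groups, at −0.86 in the Kupffer-like, −0.70 in the lipid-associated-like and −0.69 in the clusters with no subset name. None of these reached the size for a call. Among cells with a Clec4f UMI both Hmox1 (808 and 326 CPM) and Ftl1 (10610.7 and 5670.4 CPM) were lower in hKO, and Slc40a1 there stood at 2082 and 1458 CPM.

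**Figure D3:**
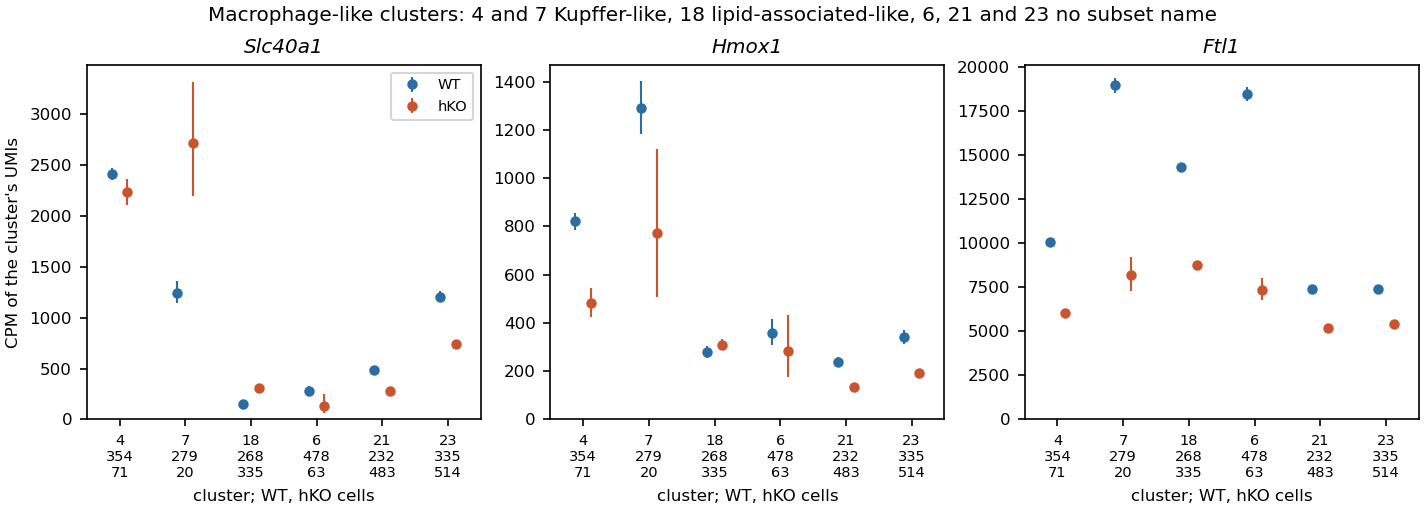
Slc40a1, Hmox1 and Ftl1 in the 6 macrophage-like clusters, as CPM of the cluster's UMIs (y axis, linear from 0) with exact Poisson 95% intervals. Blue points are WT and orange points hKO, and cell numbers stand under each cluster. Slc40a1 is near equal in cluster 4 (2412 and 2235 CPM), while Ftl1 is lower in hKO in every cluster drawn.

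Cd163 encodes the receptor for hemoglobin bound to haptoglobin. Its macrophage-like level was 15.6 CPM in WT (153 UMIs) and 3.03 CPM in hKO (33 UMIs), under the level for a call. Most WT UMIs, 105 of the 153, lay in the Kupffer-like cluster 4 (39.7 CPM), where hKO had 5 UMIs (9.33 CPM). Cd163 was also present outside macrophages, in the conventional dendritic-like cluster 19 at 17.7 CPM in WT (39 UMIs) and 11.1 CPM in hKO (26 UMIs), and in plasmacytoid dendritic-like cells at 9.77 and 3.36 CPM. Hepatocyte-like and B-like cells had 0 Cd163 UMIs in both libraries. At these counts Cd163 is the least covered of the members, with 247 UMIs in all kept WT cells and 89 in hKO.

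Slc40a1 in hepatocyte-like cells went against its macrophage direction. It had 78 UMIs (21.5 CPM) in WT and 264 UMIs (71.4 CPM) in hKO, a log2 ratio of 1.73 (1.36 to 2.11), and was called higher. Thinned to 1000 UMIs, 2.37% (1.03 to 4.62) of WT and 6.73% (5.10 to 8.69) of hKO cells held a UMI, with 129 WT and 304 hKO cells too shallow to enter. Every hKO cluster of this class (52.6, 181.6 and 74.5 CPM in clusters 42, 43 and 44) was above both large WT clusters (20.5 and 21.4 CPM in clusters 29 and 32). The 21 WT cells of cluster 42 held 2 Slc40a1 UMIs (46.3 CPM), so that the cluster with cells of both libraries showed no gap beyond counting error (log2 ratio 0.19, −1.70 to 3.25). Cluster 43 was shallow (median 837 UMIs) and carried macrophage markers at 2371 CPM, while clusters 42 and 44 carried 166 and 303 CPM. Per 1000 UMIs of those markers Slc40a1 stood at 318 in cluster 42 and 246 in cluster 44 of hKO, above the 55.2 of hKO macrophage-like cells, and at 76.6 in cluster 43. In WT it stood at 39.7 in cluster 29 and 230.2 in cluster 32, against 65.4 in macrophage-like cells.

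Endothelial-like cells had Slc40a1 at 153 CPM in WT (1323 UMIs) and 78.8 CPM in hKO (221 UMIs). The log2 ratio of −0.96 (−1.17 to −0.75) falls just short of a call. Split by subset markers, the non-sinusoidal-like clusters 14 and 39 went from 64.9 to 25.5 CPM (70 and 31 UMIs, −1.35, −2.01 to −0.72), and the clusters with no subset name from 165 to 119 CPM (−0.47). Of the latter, cluster 12 went from 181 to 57.5 CPM (−1.65, −2.22 to −1.14), cluster 13 stood at 161 and 158 CPM (−0.03, −0.30 to 0.23), and cluster 24 had 5 UMIs in hKO (114 and 77.1 CPM). Neutrophil-like cells stood at 214 and 260.5 CPM (0.29, −0.001 to 0.57), where macrophage markers were at 1629.8 and 3363 CPM. T-like cells stood at 88.8 and 54.4 CPM (−0.71), and of their clusters number 28, which also held Clec4f at 132 CPM in WT and 2.80 in hKO, had the most, 281 and 79.9 CPM. The part of macrophage RNA in the T-like and neutrophil-like values was not tested.

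Cp encodes ceruloplasmin, the plasma ferroxidase that loads exported iron onto transferrin. In hepatocyte-like cells it had 4320 UMIs (1191 CPM) in WT and 6182 UMIs (1671 CPM) in hKO, a log2 ratio of 0.49 (0.43 to 0.54) that was not called. Clusters differed more than libraries: WT stood at 361 CPM in cluster 29 and 1419.5 in cluster 32, and hKO at 785, 1801 and 3123 CPM in clusters 42, 43 and 44. The WT and hKO clusters overlap. Among hepatocyte-like cells with at least 1000 UMIs, thinned to that depth, Cp was found in 40.1% of WT and 71.1% of hKO cells. Cholangiocyte-like cells, with 82 WT and 33 hKO cells too few to compare, had Cp at 2885 and 2603 CPM, the highest of any class.

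**Figure D4:**
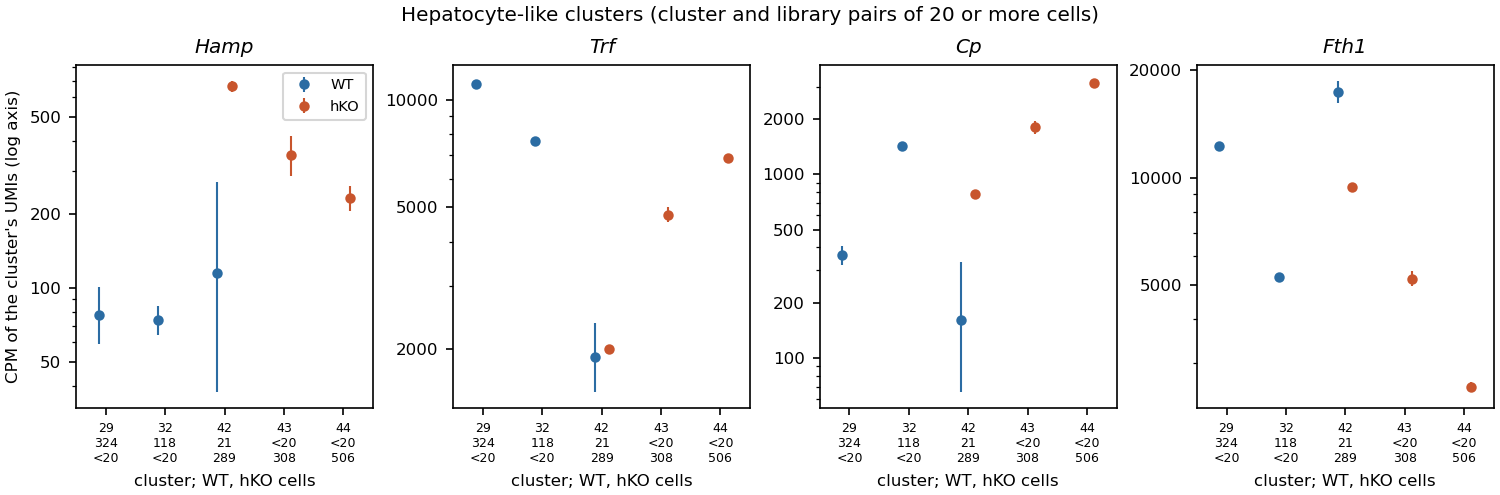
Hamp, Trf, Cp and Fth1 in the 5 hepatocyte-like clusters, as CPM of the cluster's UMIs (log axis) with exact Poisson 95% intervals, drawn for a cluster and library with at least 20 cells. Blue points are WT and orange points hKO: Hamp is between 74.1 and 116 CPM in the WT points and between 233 and 666 CPM in the hKO points, while Cp overlaps.

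Outside hepatocytes Cp was called higher in hKO in all 10 compared classes, from 32.5 and 69.4 CPM in macrophage-like cells (1.09, 0.90 to 1.29) to 40.6 and 232 CPM in erythroid-like cells (2.52, 2.01 to 3.04). It was the 1 member called in 9 of those classes. The share of all genes called higher was 20.4% in erythroid-like, 11.3% in neutrophil-like, 4.97% in B-like, 4.2% in conventional dendritic-like and 4.14% in T-like cells. It was 3.93% in endothelial-like, 3.82% in plasmacytoid dendritic-like, 3.7% in monocyte-like and 3.66% in NK or innate lymphoid-like cells. No member was called lower in these 9 classes, where the share of all genes called lower was 27.9% in erythroid-like, 3.54% in neutrophil-like, 2.03% in endothelial-like, 1.72% in NK or innate lymphoid-like and 1.34% in T-like cells. It was 0.607% in plasmacytoid dendritic-like, 0.596% in B-like, 0.568% in monocyte-like and 0.481% in conventional dendritic-like cells. The Cp levels were set against free hepatocyte RNA. Per 1000 UMIs of the 12 abundant hepatocyte transcripts Cp had 17.1 in WT and 16.2 in hKO hepatocyte-like cells, and from 11.3 to 24.4 in the 10 other classes of both libraries. The share of those 12 transcripts was itself higher in hKO in each of the 10, for example 0.180% and 0.364% in macrophage-like and 0.257% and 1.06% in B-like cells. Free hepatocyte RNA and Cp made by the cells of these 10 classes cannot be told apart from these counts. With the free RNA subtracted, at most 29 UMIs of a class were left in WT and at most 116 in hKO, and no value was left in neutrophil-like cells. The other 9 classes then fell under 50 CPM, which ends a call. The ratio of what was left was above 0 in 8 of them. It was, for example, 2.55 in macrophage-like and 4.42 in B-like cells (5 and 86 UMIs), and −0.95 in conventional dendritic-like cells. No interval is given for these ratios, because the subtracted counts carry error of their own. In B-like cells of WT the expected free level, 43.9 CPM, lay inside the interval of the observed 45.3 CPM (38.8 to 52.6). In T-like cells of WT it was 34.2 CPM, above the observed 31.9 CPM, so nothing was left and the floor of 3 UMIs makes the ratio a bound.

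**Figure D5:**
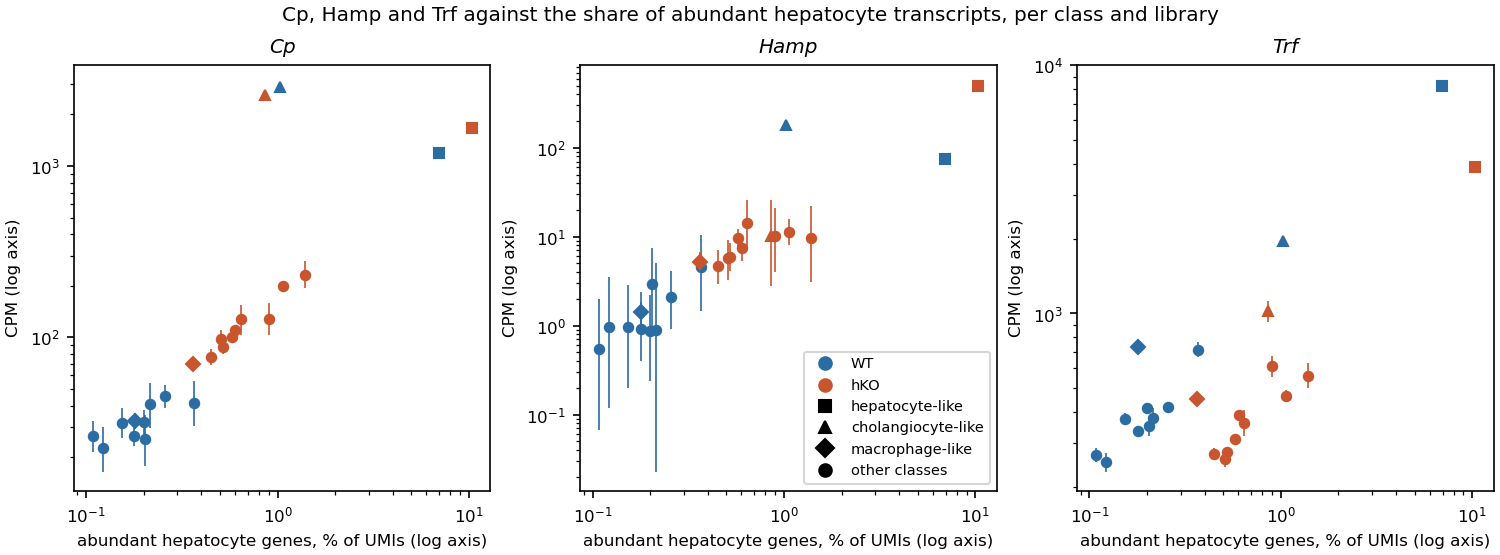
Cp, Hamp and Trf (y axes, CPM, log) against the share of 12 abundant hepatocyte transcripts (x axes, % of UMIs, log), 1 point per class and library with exact Poisson 95% intervals. Blue is WT and orange hKO; Cp follows the share in all classes drawn except the cholangiocyte-like, which lie above, and macrophage-like Trf (diamonds) lies above the other classes at its share in WT.

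Hamp encodes hepcidin. Its transcription is known to read iron through bone morphogenetic protein signals, and inflammation through STAT3. In hepatocyte-like cells Hamp had 273 UMIs (75.3 CPM) in WT and 1811 UMIs (489.5 CPM) in hKO. The hKO level was 6.50-fold higher, a log2 ratio of 2.70 (2.52 to 2.89), and this was the largest ratio of the 15 called pairs. The value of each hKO cluster was above that of each WT cluster: 77.7, 74.1 and 116 CPM in WT clusters 29, 32 and 42, and 666, 348 and 233 CPM in hKO clusters 42, 43 and 44. Cluster 42, with cells of both libraries, had 5 UMIs in its 21 WT cells (interval 37.6 to 270.1 CPM) and 1404 UMIs in its 289 hKO cells (631.5 to 702 CPM), and these intervals do not overlap. They leave out the spread between cells, which is large for Hamp, as given below. With 21 WT cells a gap between the libraries in this cluster cannot be judged from them. Without cluster 42 the ratio was 1.77.

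Few cells carried most of the Hamp. In WT 38 of 466 hepatocyte-like cells (8.15%) held a UMI, and the 10 highest held 217 of the 273 UMIs, with at most 47 in 1 cell. In hKO 158 of 1106 cells (14.3%) held a UMI, and the 10 highest held 1087 of the 1811, with at most 275 in 1 cell. Trf was spread differently, with a UMI in 98.3% of WT and 96.2% of hKO cells. Thinned to 1000 UMIs, 5.34% (3.20 to 8.31) of WT and 10.3% (8.33 to 12.7) of hKO hepatocyte-like cells held a Hamp UMI, against 0.102% and 1.49% of T-like cells. The median depth was 1946 UMIs in WT and 1506.5 in hKO hepatocyte-like cells. Those under 1000 UMIs, 129 of 466 in WT and 304 of 1106 in hKO, were left out of the thinned shares.

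Hamp per 1000 UMIs of the abundant hepatocyte transcripts was 1.08 in WT and 4.74 in hKO hepatocyte-like cells. In the other 10 compared classes it was 0.420 to 1.42 in WT and 0.690 to 2.23 in hKO, so in hKO each of them lay below the hepatocyte value. Their Hamp counts were 1 to 65 UMIs a class. The 82 cholangiocyte-like cells of WT had Hamp at 178.5 CPM and the 33 of hKO at 10.2 CPM. Hamp2, a neighbouring copy of high identity, had over all barcodes 12 UMIs in WT and 225 in hKO, and reads that fit both copies could be split or lost.

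Of 23 listed genes that control hepcidin, 9 reached 50 CPM in hepatocyte-like cells, where 1 was higher and 6 lower in hKO (median −1.37, against −0.76 over all tested genes). In this class 41.7% of all tested genes were lower and 10.9% higher, the background for this and the following lists in hepatocyte-like cells. Tmprss6, a protease that dampens the bone morphogenetic protein signal, stood at 51.8 CPM in WT and 252 CPM in hKO (2.28, 2.06 to 2.52). Id1, a target of that signal, stood at 221 and 10.8 CPM (−4.36, −4.85 to −3.90). The interleukin-6 receptor gene Il6ra stood at 65.4 and 18.1 CPM (−1.85), and the signal carrier Smad1 at 61.8 and 18.9 CPM (−1.71). In macrophage-like cells Id1 (65.7 and 18.3 CPM, −1.85) and Hfe (136 and 67.5 CPM, −1.01) were lower, 2 of 9 genes at the level. Of all genes tested in that class 1.76% were lower. In endothelial-like cells Socs3 was lower (60.8 and 22.8 CPM, −1.41), 1 of 14, where 2.03% of all tested genes were lower.

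Of 14 listed genes that clear heme and hemoglobin, 10 reached 50 CPM in hepatocyte-like cells, where 7 were higher and 1 lower in hKO (median 1.44), against the 10.9% and 41.7% of all tested genes. Hpx, the plasma heme carrier hemopexin, stood at 1252 CPM in WT and 5236 CPM in hKO (2.06, 2.02 to 2.11). Pgrmc1, a heme-binding membrane protein, stood at 299 and 1492 CPM (2.32), the transporter Abcg2 at 44.7 and 250.3 CPM (2.49), and Abcb6 at 6.07 and 50.8 CPM (3.07). Hp, the hemoglobin carrier haptoglobin, stood at 3376 and 6844 CPM (1.02). Hmox2, the constitutive heme oxygenase, was lower at 77.5 and 32.4 CPM (−1.26). Hp, Hpx and Pgrmc1 were also the 3 genes of the list called higher in macrophage-like and in endothelial-like cells, of 8 and 6 at the level. Of all tested genes 2.48% and 3.93% were called higher in these classes, where the abundant hepatocyte transcripts were higher as well. Acute phase genes, which inflammation raises in the liver, were higher in hepatocyte-like cells for 8 of the 10 at the level among 12 listed, Hp being on both lists.

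Other iron genes of hepatocyte-like cells divided. Tfr2, the transferrin receptor that senses iron in hepatocytes, stood at 30.05 CPM in WT and 71.9 CPM in hKO (1.26), and the reductase Steap4 at 18.2 and 50.01 CPM (1.46). Slc39a14, which imports iron not bound to transferrin, stood at 168 and 58.9 CPM (−1.51). Of 15 genes that sense iron or control its storage, 12 reached 50 CPM, 1 was higher (Nfe2l1, 1.25) and 8 lower (median −1.46), against the 10.9% and 41.7% of all tested genes. Among these were Epas1, the hypoxia factor (179 and 37.0 CPM, −2.27), Nfe2l2, the oxidative stress factor (238 and 60.3 CPM, −1.98), Fbxl5, the iron sensor that clears iron regulatory protein (56.0 and 16.8 CPM, −1.74), and Ireb2, such a protein itself (60.1 and 18.9 CPM, −1.67). The mitochondrial importer Slc25a37 stood at 56.0 and 14.1 CPM (−1.99), 1 of 3 lower among 9 genes of iron-sulfur assembly at the level, a share below the 41.7% of all tested genes. Of 6 heme synthesis genes at the level none was called. Dissociation stress genes were lower in the same cells, 8 of 9 at the level, at 0.180% of UMIs in WT and 0.0453% in hKO, and their part in these differences was not tested.

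The genes whose class pattern was most like a member's were sought over 22 points, 11 classes of 2 libraries, among 6189 genes by Pearson correlation of log2(CPM + 10). The points of a library share its depth and free RNA, so the values are descriptions. For Slc40a1 these were Vcam1 (0.943), Il18bp (0.926) and Slco2b1 (0.881), for Hmox1 Pilrb1 (0.926), Lilra5 (0.923) and Trem2 (0.915), and for Ftl1 Plin2 (0.862), Cd14 (0.862) and Ninj1 (0.861). Hamp followed Bhmt (0.975), Glyat (0.970) and Crp (0.968), and Cp followed Ambp (0.995). Trf followed Gsta4 (0.959), Slc11a1 followed Pilrb1 (0.961), Tfrc followed Ccr9 (0.882), and Fth1 followed Rbm47 at a looser 0.876.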

How the data were processed

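The deposited counts are unnormalized UMIs of a gene in a barcode, written by Cell Ranger 7.1.0 per the file headers. The other columns that the authors deposited name genes and barcodes. The submitters' processing notes also list R 3.0, Seurat 3 and build mm9. Per the labels' protocols, the kit was the 10x 3′ kit.

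Barcodes had at least 500 UMIs as deposited (WT 14289 barcodes, 58772330 UMIs; hKO 18657, 68010317). Those with at least 200 genes and at most 25% mitochondrial UMIs were kept, which left out 2645 WT and 6864 hKO barcodes over that limit. Scrublet's own threshold removed 394 WT doublets. In hKO it called 0.0175%, under 0.5%, so the expected rate of 9.16% was removed (1049 cells). Cells were clustered with scanpy 1.11.5 (2000 variable genes without the members, 30 components, Leiden resolution 2.0) and clusters named from fixed markers. The 6 unnamed clusters hold 762 WT and 1167 hKO cells. UMIs were summed per class and library. Intervals are exact 95% ones (Poisson for CPM, Clopper-Pearson for shares, conditional binomial for ratios) and hold counting error alone. Zero counts were floored at 3 UMIs. The rule of size was tested on simulated data. All members were named, with the 2 to 4 largest called genes of each context list and the 3 most like genes. The members and lists were chosen with earlier results of these data known. Alternatives are given at the end. GENCODE M21 sequences are of build GRCm38, and no coordinates of the counts were used. Some of the most like genes and a promoter search are not reported here.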

Additional observations from a re-analysis of the deposited data

Results flagged for a closer look

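Slc40a1 was the 1 member with calls in opposite directions: its log2 ratio, hKO over WT, was 1.73 in hepatocyte-like cells and −1.13 in macrophage-like cells. With 1 library a genotype this difference was not tested.

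Barcodes over the mitochondrial limit entered no comparison (2645 in WT, 6864 in hKO), and 4 members were higher there in hKO with intervals that do not overlap. Hamp stood at 29.1 CPM of non-mitochondrial UMIs in WT (45 UMIs) and 117 CPM in hKO (626 UMIs). Cp stood at 532 CPM in WT and 1711 CPM in hKO. Below a log2 ratio of 1 or the 50 CPM level, Slc11a1 stood at 43.9 and 71.0 CPM and Tfrc at 12.3 and 34.3 CPM, and the other 6 members were lower in hKO. The abundant hepatocyte transcripts were 3.60% of these UMIs in WT and 9.70% in hKO, and their part in the differences was not tested.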

How the results depend on the processing

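No paired analysis was possible because each genotype has 1 library, and for the same reason no replicate could be left out. Over 18 alternatives, 11 planned and 7 chosen after seeing the data (clusters left out of, or added to, macrophage-like and hepatocyte-like cells), the 664 recomputed log2 ratios of the 57 pairs split into 374 within the counting interval, 288 that moved out of it and 2 that reversed. With free RNA subtracted, Cp in conventional dendritic-like cells turned to −0.95, and with the Kupffer-like clusters 4 and 7 alone Slc40a1 in macrophage-like cells turned to 0.00739. Part of the 374 could not move. The ratios with no CPM floor use the main counts, and free RNA was not subtracted from hepatocyte-like cells.

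The 12 higher pairs became 27 with no CPM floor and 2 with free RNA subtracted. Those 2 were Hamp and Slc40a1 in hepatocyte-like cells, from which nothing was subtracted. The 3 lower pairs became 6 with free RNA subtracted, 1 with classes from a per-cell marker score and 7 with no CPM floor. The 3 called members in hepatocyte-like cells became 5 with the marker score, with no CPM floor and without cluster 42. The 3 in macrophage-like cells became 1 with at least 500 genes and 1000 UMIs, 1 with the marker score and 5 with no CPM floor. The 1 in endothelial-like cells became 2 at Leiden resolution 1.0, at a 10% mitochondrial limit, with at least 500 genes and 1000 UMIs and with no CPM floor, and 0 with free RNA subtracted. The cause was not tested, except that with no floor more genes can be called and that subtraction removes UMIs. The share of all genes called was not computed under the alternatives, so these counts have no background beside them.

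In hepatocyte-like cells Hamp (1.77 to 3.33) and Slc40a1 (1.48 to 2.18) kept their calls in 14 of 14 alternatives, and Trf (−1.60 to −0.38) in 10 of 14. Some of these alternatives could not take a call away. Free RNA was not subtracted from hepatocyte-like cells, and removing the CPM floor cannot end a call in any class. No alternative left out the hKO cluster 43 or 44. In macrophage-like cells Hmox1 (−1.22 to −0.82) kept its call in 11 of 15 and Slc40a1 (−1.30 to 0.01) in 9 of 15. The main setting removed doublets by a different rule in each library. Slc40a1 lost its macrophage call with doublets kept and with the expected doublet rate in both libraries. It kept the call at the 10% and 50% mitochondrial limits, where both libraries also had the same doublet rule. Depth limits Cd163, and Hamp and Tfrc outside their highest classes, to few UMIs a class.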
